A study of Homo sapiens with 3 samples.

Results

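The genes described here are transcription factors of embryonic development: forkhead (FOX), GATA, SOX, PAX, T-box (TBX), homeobox (SIX2, LHX, ISL, NKX, PITX, MEIS, IRX, DLX, MSX and EN), ZIC and HAND genes. They were taken as a list of 52 symbols that are widely known as targets of Polycomb repression, and 49 of them were found among the 29689 genes of the expression table. FOXF1, GATA4 and NKX2-2 were not analysed here. The values come from 3 RNAseq libraries of human SUM-149 tumors, grown from a TNBC cell line that was mixed with Matrigel and injected into the mammary fat pad of female Nu/Nu mice. One tumor library received vehicle, 1 the CDK2 inhibitor dinaciclib (CDK2i) for 10 days and 1 an EZH2 inhibitor (EZH2i) for 10 days. The labels name this EZH2 inhibitor as EPZ6438, while the study's text names GSK343 for SUM-149 xenografts. The labels do not say how many mice a library holds, and Nu/Nu mice lack a thymus and most T cells but keep their own stroma, vessels and macrophages.

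Polycomb repressive complex 2 holds EZH2, the enzyme that methylates histone H3 at lysine 27, and this mark keeps developmental transcription factor genes off in cells that do not use them. Most such genes start in CpG islands, and in a differentiated tissue only the few that belong to its lineage are on. CDK2 can phosphorylate EZH2, and the study compared the inhibitors of the kinase and of the methyltransferase for a shared effect on transcription. The libraries hold RNA only, so neither the histone mark nor EZH2 phosphorylation was measured in them.

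Promoter sequences of 4 members show the CpG content of these genes. FOXI1 lay farthest below vehicle in CDK2i among the well expressed members, FOXC1 passed the fold threshold in EZH2i alone, FOXE1 was weak in vehicle and higher in EZH2i, and SOX1 was nearly absent from all tumors. Each line gives the 250 bases before the gene's start, from RefSeq on GRCh38.p14 (plus strand), with every CG in capitals. A CG reads the same on both strands, so a single scan counts both. The regions are chr5:170105647-170105896 for FOXI1, chr6:1609665-1609914 for FOXC1, chr9:97852976-97853225 for FOXE1 and chr13:112066899-112067148 for SOX1.
FOXI1: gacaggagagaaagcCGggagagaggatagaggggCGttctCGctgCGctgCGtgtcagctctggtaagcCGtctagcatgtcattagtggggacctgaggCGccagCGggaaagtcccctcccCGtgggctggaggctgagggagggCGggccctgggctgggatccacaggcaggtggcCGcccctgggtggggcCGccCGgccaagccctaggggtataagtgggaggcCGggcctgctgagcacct
FOXC1: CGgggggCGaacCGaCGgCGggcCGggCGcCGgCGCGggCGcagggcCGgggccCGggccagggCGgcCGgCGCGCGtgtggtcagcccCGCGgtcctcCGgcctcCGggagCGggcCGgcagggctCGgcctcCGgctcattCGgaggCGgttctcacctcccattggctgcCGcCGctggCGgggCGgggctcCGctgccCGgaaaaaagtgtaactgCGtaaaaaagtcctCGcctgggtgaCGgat
FOXE1: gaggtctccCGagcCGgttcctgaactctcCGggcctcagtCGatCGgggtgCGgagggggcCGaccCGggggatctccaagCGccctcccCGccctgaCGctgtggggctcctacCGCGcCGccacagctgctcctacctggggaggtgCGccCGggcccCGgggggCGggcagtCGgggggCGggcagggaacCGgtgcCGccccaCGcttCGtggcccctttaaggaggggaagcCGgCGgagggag
SOX1: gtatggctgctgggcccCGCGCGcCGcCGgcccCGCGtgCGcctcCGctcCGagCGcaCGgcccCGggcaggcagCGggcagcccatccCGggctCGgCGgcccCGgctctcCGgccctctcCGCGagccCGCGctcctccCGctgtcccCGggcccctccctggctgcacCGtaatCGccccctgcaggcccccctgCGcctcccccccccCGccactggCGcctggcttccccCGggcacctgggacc

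FOXI1 held 14 CG in this window, a number that 44.8% of all 35116 RefSeq promoters reach or pass. FOXE1 held 26 (reached by 19.6%), SOX1 held 31 (10.9%) and FOXC1 held 37 (4%). At least 1 CG was present in 93.9% of all promoters. The CG count did not set the members apart as a group. Over the 32 members with an entry the median was 21.5, against 21 over 13151 genes of the expression table, and it was 21.5 for the 12 members expressed in vehicle and 22 for the 20 silent ones.

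Levels are given as log2 FPKM, fragments scaled to transcript length and to library size, which allows levels to be compared between genes. The table uses −9 where FPKM seems to be 0, and such a value is written as listed at 0, with no fold against it. The FPKM steps of weak genes placed the depth at 16.8 M (mega) fragments in the vehicle library, 19.1 M in the CDK2i library and 17.5 M in the EZH2i library. Fragment numbers derived from these depths are approximate, because the gene lengths used by the authors are not stated. With 1 library per condition there is no replicate error, no test and no p-value for any difference below. Brackets give the 95% interval of a difference from an exact binomial split of the fragments, which covers counting error only. As a further yardstick, the spread of a gene is the SD of the EZH2i minus CDK2i differences over the 200 genes nearest in mean level, and it holds drug effects as well as noise.

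A member was called silent where its vehicle value was below log2 FPKM 0 or listed at 0, and expressed otherwise. By this split 29 of the 49 members (59.2%) were silent in the vehicle tumor and 20 were expressed. The same split gave 54.6% silent over all genes of the table and 53% over 83 other genes of the same families, so the members' share lay near that background. The members nearest to the split were TBX1 at 0.20 just inside the expressed class and DLX2 at −0.04 just outside it. Only 10 members passed log2 FPKM 3 in any tumor, and 25 stayed below 0 in every tumor.

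Families differed in how many members were on. Of 10 forkhead genes 5 were expressed in vehicle, of 15 homeobox genes 8, of 6 T-box genes 3, and of 8 SOX genes 2. GATA6 was expressed and GATA2 was not, and ZIC1 was expressed and ZIC2 was not. None of the 5 PAX genes and not HAND2 reached log2 FPKM 0 in vehicle. SOX14, SOX17 and TBX5, regulators of neural, endodermal and heart development, were listed at 0 in all 3 tumors. SOX9 had the highest level among the members in each tumor.

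**Figure D1:**
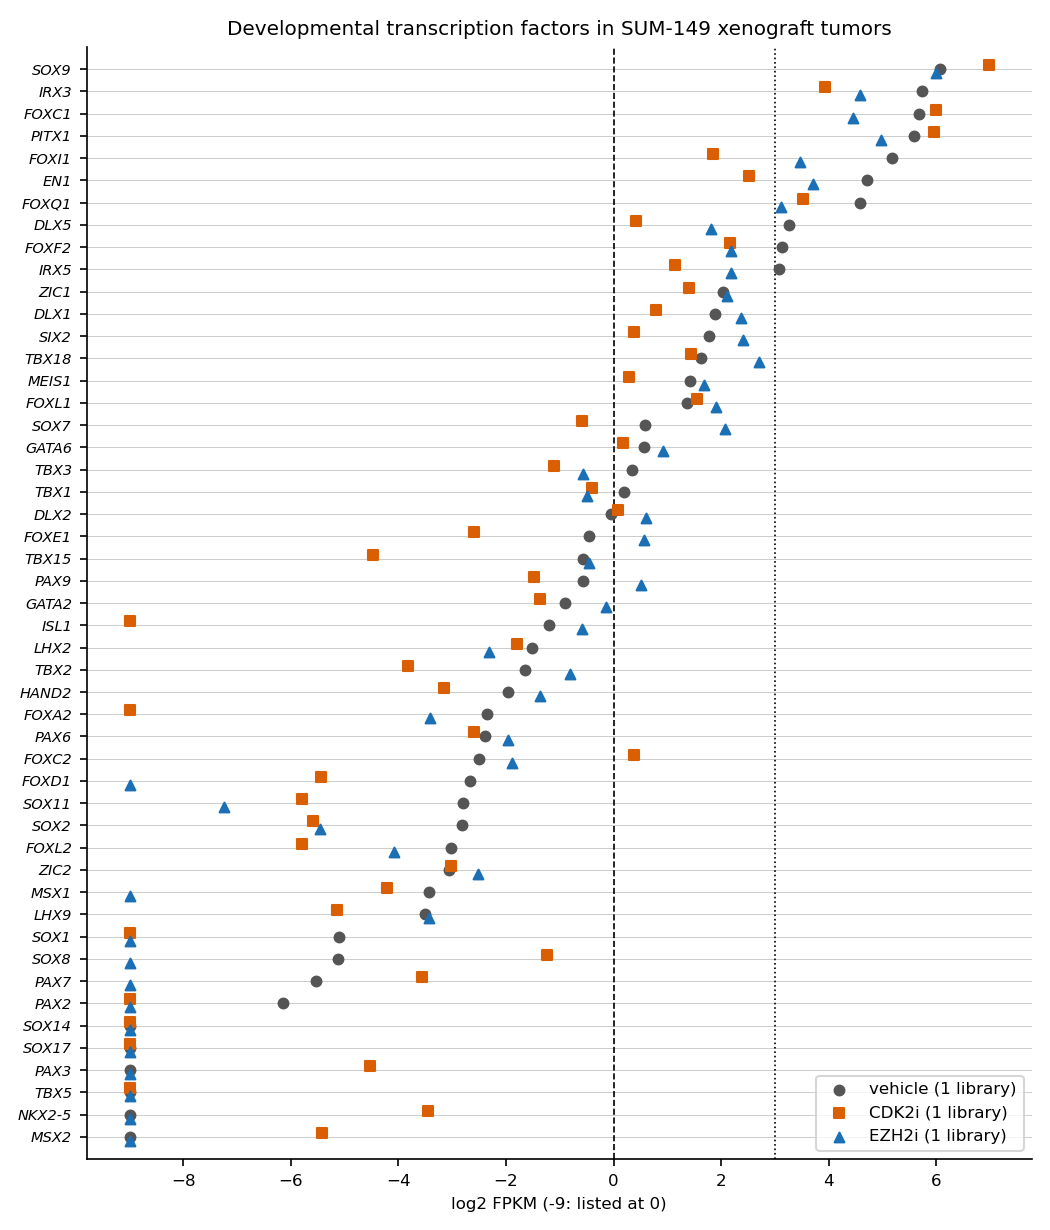
Log2 FPKM of the 49 members in the vehicle (circles), CDK2i (squares) and EZH2i (triangles) library, ordered by the vehicle level, with −9 for genes listed at 0; the dashed line marks 0 and the dotted line 3. The members that span the top of the plot run from 6.07 for SOX9 down to 0.20 for TBX1 in vehicle, and most squares there lie left of the circles.

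Most members expressed in vehicle had a lower level in CDK2i. The vehicle value chose this class and also enters the differences, so the counts are read only beside the same counts over all genes. A gene was called different where it passed a fold of 2 and its larger level exceeded log2 FPKM 3, which are the study's thresholds without its p cutoff. Of the 10 members that could pass, 6 were lower in CDK2i (DLX5, EN1, FOXI1, FOXQ1, IRX3 and IRX5) and 0 were higher. Over all 6632 genes that could pass, 8.07% were lower and 3.27% higher. All 10 members exceeded log2 FPKM 3 in vehicle, and DLX5, EN1, FOXF2, FOXI1 and IRX5 did not exceed it in CDK2i. Such an entry favours calls as lower. The 6632 genes include some that entered through CDK2i, so the shares are not strictly alike. Without a size threshold, 16 of the 20 expressed members were lower in CDK2i, against 61.8% of all 13389 genes expressed in vehicle with no value listed at 0. The median difference was −1.09 over the members and −0.18 over those genes. In a class chosen by a mean log2 FPKM above 1 over the 3 libraries, 12 of 16 members were lower, with a median of −1.09 against −0.11 over 11109 genes.

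In the EZH2i tumor, which shares the vehicle library with the comparison above, 5 of 10 members were lower than vehicle (DLX5, FOXC1, FOXI1, FOXQ1 and IRX3) and 0 were higher. The background was 4.42% lower and 8.93% higher over 7414 genes. All 10 members entered through vehicle, and DLX5, FOXF2 and IRX5 did not exceed log2 FPKM 3 in EZH2i, which again favours calls as lower. The 7414 genes include some that entered through EZH2i, so these shares are not strictly alike either. Of the 20 expressed members 12 were lower at any size, against 40.4% of all genes. The median difference was −0.65 over the members and 0.16 over all genes. In the class chosen by the mean, 10 of 16 members were lower, with a median of −0.76 against 0.19. Between the treated tumors, where the vehicle library plays no part in the difference, 7 members could pass and FOXC1 was lower in EZH2i, while EN1 and FOXI1 were higher in it. EN1 and FOXI1 exceeded log2 FPKM 3 in EZH2i and not in CDK2i, an entry that favours calls as higher. Over 7394 genes 6.52% were lower and 17.5% higher in EZH2i than in CDK2i. At any size, 5 of 20 expressed members were lower in EZH2i than in CDK2i (32.0% of all genes), and the median difference was 0.73, against 0.40 over all genes.

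**Figure D2:**
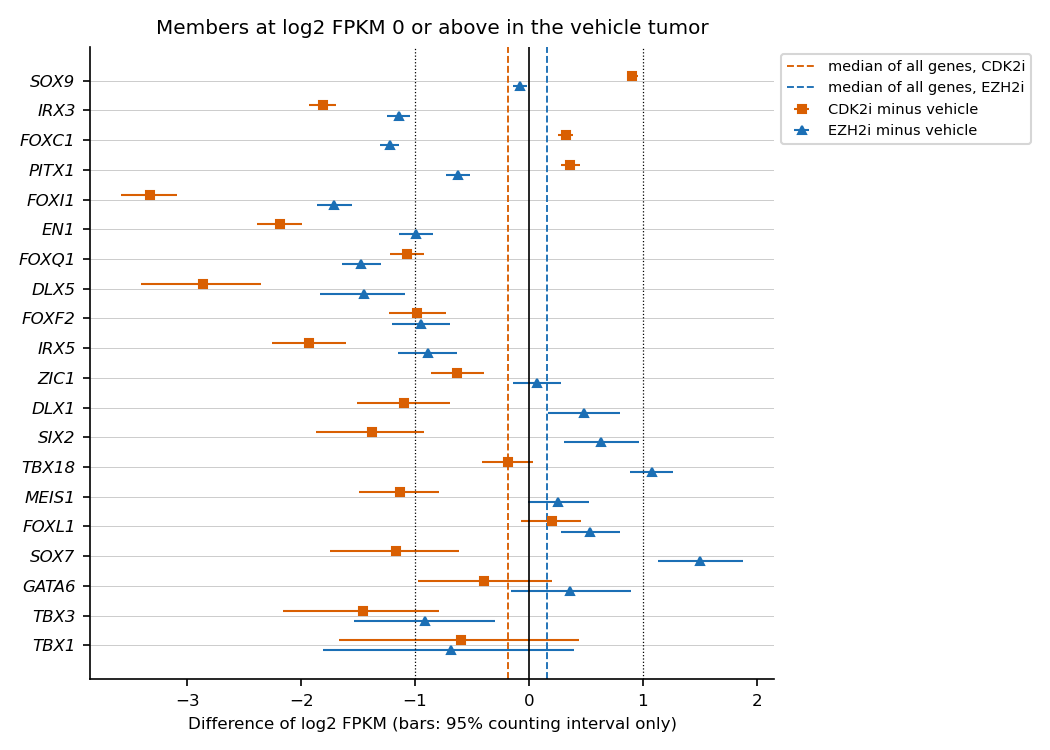
Difference of log2 FPKM from the vehicle tumor for the 20 members expressed in vehicle, with bars for the 95% counting interval, dotted lines at a fold of 2 and dashed lines at the median of all genes expressed in vehicle (−0.18 for CDK2i, 0.16 for EZH2i). FOXI1 and DLX5 lie farthest to the left in CDK2i at −3.33 and −2.86, and SOX7 lies farthest to the right in EZH2i at 1.5.

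FOXI1 (chromosome 5 of GRCh37, 169532901 to 169536738) drives the ionocyte programme in the inner ear, kidney and airway. Its log2 FPKM was 5.17 in vehicle, 1.84 in CDK2i and 3.47 in EZH2i, or about 1406, 159 and 449 fragments. The vehicle tumor was highest and the CDK2i tumor lowest. The log2 difference was −3.33 [−3.58, −3.09] in CDK2i, a 10.1-fold lower value, and −1.71 [−1.86, −1.55] in EZH2i, 3.26-fold lower. EZH2i lay 1.62 [1.36, 1.89] above CDK2i. Its spread was 0.77, and these differences were all larger than it.

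FOXQ1 (chromosome 6, 1312333 to 1314993), FOXF2 (1389811 to 1395838) and FOXC1 (1610150 to 1614132) lie side by side on the short arm of chromosome 6 but did not move alike. FOXQ1, known from hair shaft formation and epithelial plasticity, was at 4.59 in vehicle, 3.53 in CDK2i and 3.12 in EZH2i. FOXF2, a factor of gut and palate mesenchyme, was at 3.14, 2.16 and 2.19. FOXC1, which patterns mesoderm and the front of the eye and is a known marker of basal-like breast cancer, was at 5.67, 6.0 and 4.45. FOXQ1 and FOXF2 were thus lower in both treated tumors, whereas FOXC1 was highest in CDK2i and lowest in EZH2i.

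For FOXC1 the log2 difference from vehicle was 0.33 [0.26, 0.39] in CDK2i and −1.22 [−1.31, −1.14] in EZH2i. EZH2i lay 1.55 below CDK2i in log2 FPKM (difference −1.55 [−1.63, −1.46], spread 0.62), the largest separation of the treated tumors in this direction among the well expressed members. FOXQ1 differed by −1.07 [−1.22, −0.92] in CDK2i and −1.47 [−1.64, −1.30] in EZH2i (spread 0.76). FOXF2 missed the fold threshold in each, at −0.98 and −0.95, and its spread was 1.00. Centring the libraries on the median gene raised the CDK2i differences by 0.17 and lowered the EZH2i differences (shift −0.22). FOXQ1 was then no longer called in CDK2i, and FOXF2, EN1 and IRX5 were called in EZH2i. With equal summed FPKM, FOXQ1 lost its CDK2i call and FOXC1 and IRX3 lost their EZH2i calls.

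The Iroquois genes IRX3 (chromosome 16, 54317216 to 54320699) and IRX5 (54964777 to 54968397) pattern limb, heart and neural tissue and belong to 1 cluster. IRX3 was at 5.73 in vehicle, 3.93 in CDK2i and 4.59 in EZH2i, and IRX5 at 3.08, 1.15 and 2.19. Both genes kept the same order of tumors, with vehicle highest and CDK2i lowest. The Iroquois genes outside the member list (IRX1, IRX2, IRX4 and IRX6) did not share it. IRX6, at 1.23, 0.74 and −1.25, was lowest in EZH2i. In CDK2i the log2 differences of IRX3 and IRX5 were −1.81 [−1.93, −1.69] and −1.93 [−2.26, −1.61]. In EZH2i they were −1.14 [−1.25, −1.04] and −0.89 [−1.15, −0.63], so only IRX3 passed the fold threshold there. Their spreads were 0.78 and 0.85.

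EN1 (chromosome 2, 119599747 to 119605224), a factor of the midbrain boundary and of sweat gland formation, was at 4.71 in vehicle, 2.52 in CDK2i and 3.71 in EZH2i. DLX5 (chromosome 7, 96649708 to 96654262), a regulator of jaw and bone formation, was at 3.27, 0.41 and 1.81, about 229, 36 and 87 fragments. These genes showed the order seen for FOXI1, IRX3 and IRX5. EN1 differed from vehicle by −2.19 [−2.39, −1.99] in CDK2i and −0.99 [−1.14, −0.84] in EZH2i, just short of the fold threshold. DLX5 differed by −2.86 [−3.41, −2.35] and −1.45 [−1.83, −1.09]. Their spreads were 0.84 and 1.01.

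SOX9 (chromosome 17, 70117161 to 70122557), which directs cartilage formation and marks epithelial progenitors, was at 6.07 in vehicle, 6.98 in CDK2i and 5.99 in EZH2i. PITX1 (chromosome 5, 134363424 to 134370503), a factor of hindlimb and pituitary, was at 5.59, 5.96 and 4.97. Together with FOXC1 and FOXL1, these were the 4 expressed members with a higher level in CDK2i than in vehicle. The difference for SOX9 was 0.91 [0.86, 0.96] in CDK2i, a fold of 1.88 and so below the threshold, and −0.08 [−0.14, −0.02] in EZH2i. Its spread was 0.71. SOX9 passed as higher in CDK2i with the libraries centred on the median gene, with equal summed FPKM and with the GC and length trend removed. PITX1 differed by 0.36 and −0.62, with a spread of 0.59. EZH2i minus CDK2i was −0.99 for both genes, just short of the fold threshold. After centring both passed as lower in EZH2i than in CDK2i, and EN1 no longer passed as higher.

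The remaining expressed members were weaker, between log2 FPKM 0.20 and 2.04 in vehicle, and could not be called at the expression minimum in either treated tumor. ZIC1, DLX1, SIX2, MEIS1, GATA6 and SOX7 were lower in CDK2i and higher in EZH2i than in vehicle, as was TBX18. Counting intervals included 0 in EZH2i for ZIC1, MEIS1 and GATA6, and in CDK2i for GATA6 and TBX18. SIX2, which maintains nephron progenitors, was at 1.77 in vehicle, 0.38 in CDK2i and 2.40 in EZH2i, and its treated tumors differed by 2.02 [1.58, 2.47] against a spread of 1.05. DLX1, a factor of forebrain interneurons, was at 1.89, 0.78 and 2.37. TBX18, a factor of the epicardium and the sinus node, was at 1.62, 1.43 and 2.70. MEIS1, a partner of HOX proteins, was at 1.42, 0.28 and 1.68. The EZH2i level was the highest for each of these genes, and also for GATA6, an endoderm factor (0.56, 0.17 and 0.92), and FOXL1, a factor of gut mesenchyme (1.36, 1.55 and 1.90). After removal of the GC and length trend, ZIC1 and MEIS1 turned to differences of −0.44 and −0.37 in EZH2i, and ZIC1 also turned negative after centring. FOXL1 lay above CDK2i by 0.34 in EZH2i, but at −0.22 without the trend, and centring also turned this difference.

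SOX7, a SOX factor of endothelial development, was at 0.58 in vehicle, −0.59 in CDK2i and 2.08 in EZH2i, about 81, 41 and 239 fragments. The difference between the treated tumors was 2.67 [2.19, 3.19], the largest among the expressed members, with a spread of 1.22. SOX7 shares exon sequence on its own strand with PINX1, so its fragments could have been split between both genes. The 4 endothelial markers in the table, of 6 listed, were below log2 FPKM 0 in all tumors, and they summed to 0.927 FPKM (vehicle), 0.751 (CDK2i) and 0.734 (EZH2i). Vessels of the host are of mouse, so these human values do not measure them. TBX3, which is needed for the mammary bud, was at 0.35, −1.11 and −0.56. TBX1, a factor of the pharyngeal arches, was at 0.20, −0.41 and −0.49, with counting intervals that included 0 in both comparisons.

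Among the silent members, few reached log2 FPKM 0 in a treated tumor. In CDK2i this held for 2 of 29 (FOXC2 and DLX2), beside 4.12% of the 16212 genes silent in vehicle. In EZH2i it held for 3 of 29 (DLX2, FOXE1 and PAX9), beside 7.46%. Both shares lay near the background share of genes that were chosen as low in the same library.

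FOXC2 (chromosome 16, 86600435 to 86603334), needed for lymphatic vessels and mesenchyme, was at −2.50 in vehicle, 0.38 in CDK2i and −1.88 in EZH2i, about 5, 42 and 8 fragments. The CDK2i tumor alone was high, and it differed from vehicle by 2.88 [1.55, 4.58] against a spread of 1.65. An antisense gene, FOXC2-AS1, overlaps its exons. DLX2, the partner of DLX1 in forebrain and jaw, was at −0.04, 0.09 and 0.60, with intervals that included 0. It crossed the split with differences of 0.13 in CDK2i and 0.64 in EZH2i.

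FOXE1 (chromosome 9, 100615508 to 100618999), the thyroid and palate forkhead factor, was at −0.46 in vehicle, −2.59 in CDK2i and 0.57 in EZH2i, about 42, 11 and 90 fragments. PAX9 (chromosome 14, 37126773 to 37148567), a factor of tooth and pharyngeal pouch formation, was at −0.57, −1.48 and 0.50, about 47, 29 and 103 fragments. In both genes the CDK2i tumor was lowest and the EZH2i tumor highest. FOXE1 differed from vehicle by −2.12 [−3.23, −1.14] in CDK2i and 1.04 [0.50, 1.60] in EZH2i, and PAX9 by −0.91 [−1.60, −0.19] and 1.07 [0.56, 1.60]. The spreads of 1.51 and 1.45 were larger than both EZH2i differences. PAX9 overlaps the antisense gene SLC25A21.

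**Figure D3:**
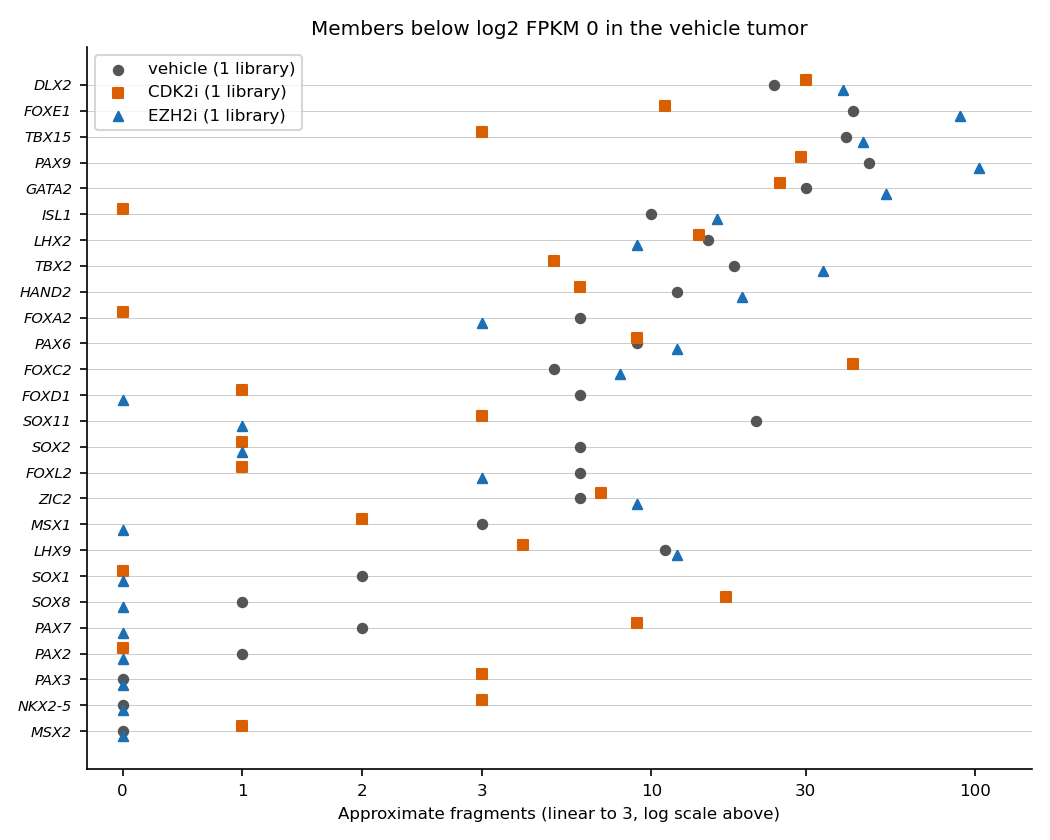
Approximate fragments of the 26 members below log2 FPKM 0 in vehicle that were detected in at least 1 tumor, on an axis that is linear to 3 and logarithmic above, for vehicle (circles), CDK2i (squares) and EZH2i (triangles). TBX15 has 40 and 45 fragments in vehicle and EZH2i and 3 in CDK2i, FOXC2 has 42 in CDK2i against 5 and 8, and most genes in the lower part rest on fewer than 10 fragments.

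The other silent members had their highest value below log2 FPKM 0. TBX15 (chromosome 1, 119425669 to 119532179), a skeletal and adipose factor, was at −0.56 in vehicle, −4.48 in CDK2i and −0.45 in EZH2i, about 40, 3 and 45 fragments. TBX2, which has roles in heart and mammary development, was at −1.65, −3.83 and −0.81, about 18, 5 and 34 fragments. ISL1, a motor neuron and heart factor, was at −1.21 in vehicle and −0.59 in EZH2i and was listed at 0 in CDK2i. In all of these the CDK2i tumor was lowest. The difference of TBX15 in CDK2i was −3.93 [−6.26, −2.27], with a spread of 1.74, and that of TBX2 was −2.19 [−3.82, −0.55], with a spread of 1.57. GATA2 and HAND2, factors of blood and heart, followed the same order, with counting intervals that included 0 in CDK2i. Further weak silent members detected in every tumor were LHX2, PAX6, ZIC2, FOXL2 and LHX9, factors of brain, eye and gonad development. LHX2, the highest of these 5 in vehicle, was at −1.51, −1.80 and −2.31, and LHX9, the lowest, was at −3.50, −5.15 and −3.44.

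Over the 15 silent members with no value listed at 0, the median difference from vehicle was −1.19 in CDK2i and 0.52 in EZH2i, against −0.19 and 0.30 over 6642 such genes. EZH2i lay above CDK2i in 12 of the 15 members, beside 63.5% of those genes, with a median difference of 1.21 against 0.39. The exceptions were FOXC2, LHX2 and SOX11. Over 21 such genes of the same families outside the member list, EZH2i lay above CDK2i in 61.9%. Their median difference was 1.04, near that of the members. SOX11, a neural progenitor factor, was at −2.80 in vehicle, −5.80 in CDK2i and −7.25 in EZH2i, about 21, 3 and 1 fragments. The difference in EZH2i was −4.45 [−9.82, −1.82]. SOX2, the pluripotency factor, had about 6 fragments in vehicle and 1 in each treated tumor.

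Detection itself differed in both directions. Of 23 members detected below log2 FPKM 0 in vehicle, 4 were listed at 0 in CDK2i (FOXA2, ISL1, PAX2 and SOX1), beside 26.2% of 10359 genes. In EZH2i 6 were listed at 0 (FOXD1, MSX1, PAX2, PAX7, SOX1 and SOX8), beside 23.0%. Of the 6 members listed at 0 in vehicle, 3 were detected in CDK2i (MSX2, NKX2-5 and PAX3), beside 51.5% of 5853 genes, and 0 in EZH2i, beside 44.2%. The members newly detected in CDK2i rested on 1 to 3 fragments each. SOX8, a neural crest factor, had about 1 fragment in vehicle, 17 in CDK2i and 0 in EZH2i, and its CDK2i difference was 3.90 [1.23, 9.29]. PAX7, which marks muscle stem cells, had about 2, 9 and 0. In all, 6 members were listed at 0 in vehicle, 7 in CDK2i and 12 in EZH2i.

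The members had GC-rich transcripts, and the differences in EZH2i ran with GC content over all genes. The median GC content was 55.6% for the 20 expressed members and 58.5% for the 29 silent ones, against 49.7% over 9479 genes with a mean log2 FPKM above 1. Of 3375 genes expressed in vehicle with a GC content of at least 55.6%, 69% were lower in EZH2i, with a median of −0.25, and 54.9% were lower in CDK2i, with a median of −0.07. With the trend of GC content and length removed, a step chosen after seeing the data, the median of the expressed members was −0.96 in CDK2i and −0.41 in EZH2i, and 16 and 14 of 20 lay below 0. IRX3 was then no longer called in EZH2i, while DLX5, FOXC1, FOXI1 and FOXQ1 still were.

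**Figure D4:**
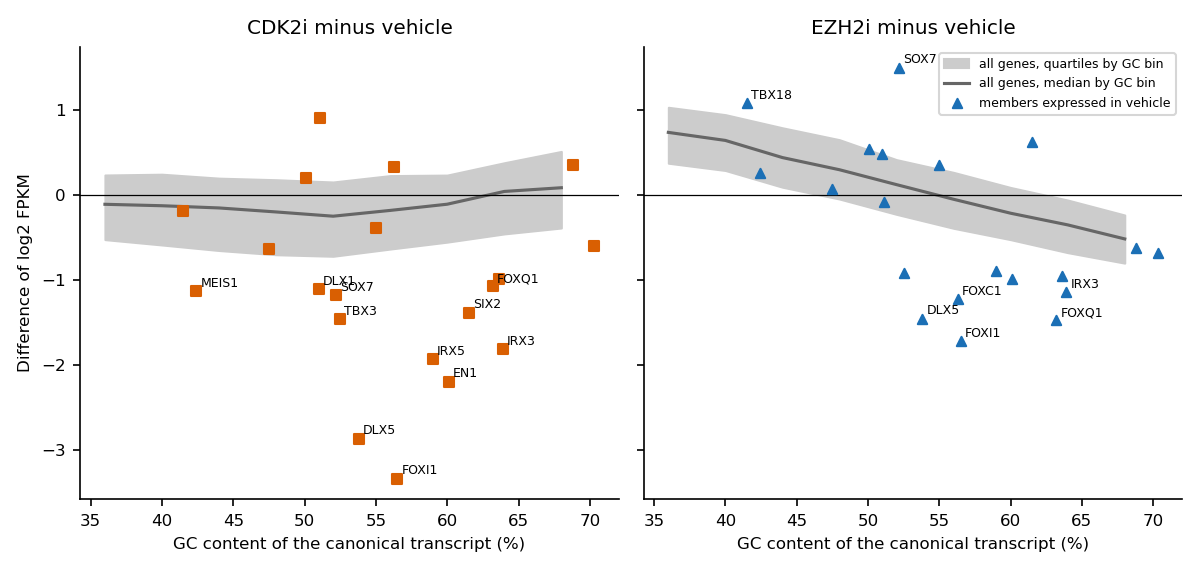
Difference of log2 FPKM from vehicle against the GC content of the canonical transcript for the 20 expressed members, with the median (line) and quartiles (band) of all expressed genes by GC bin; CDK2i is on the left and EZH2i on the right. In CDK2i most members lie below a nearly level band, with FOXI1 at −3.33, and in EZH2i the band itself slopes down, with FOXI1, DLX5, FOXQ1 and FOXC1 below it at −1.71, −1.45, −1.47 and −1.22.

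A tumor library mixes cell types, and in such bulk RNA fewer cells of a type and less RNA per cell cannot be told apart. All 5 epithelial and 7 basal epithelial markers were at log2 FPKM 4.15 or above in every tumor. Of the 7 basal markers 4 passed as higher in CDK2i (KRT5 by 1.17, KRT6A by 1.31, KRT14 by 1.35 and KRT17 by 1.29), and all 7 summed to 6320 FPKM (vehicle), 15300 (CDK2i) and 6150 (EZH2i). In EZH2i the basal markers TP63 (1.13) and EGFR (1.05) passed as higher than vehicle, and the epithelial marker KRT19 passed as lower (−1.24). The stroma of these xenografts comes from the mouse host, while the values are of human genes, so stromal markers here do not measure its amount. The 8 fibroblast markers summed to 24.5, 38.4 and 28.9 FPKM. COL1A1 was the highest at 3.70, 4.65 and 4.01, and THY1 was listed at 0 in all tumors. The list did not move in a single direction. In CDK2i COL1A1 (0.95), LUM (1.02, the only one called), COL1A2 (2.6) and PDGFRA (1.62) were above vehicle, and COL3A1 (−1.44), DCN (−0.70) and PDGFRB (−0.19) were below it. In EZH2i COL1A1, DCN and LUM were above vehicle, and COL3A1 (−2.07), PDGFRB (−0.70), COL1A2 (−0.32) and PDGFRA (−0.06) were below it. The macrophage and skeletal muscle markers were below log2 FPKM 0 in every tumor. The part of the basal, epithelial and fibroblast marker differences in those of the members was not tested.

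The Polycomb machinery was measured in the same libraries by a list of 38 genes, of PRC2, PRC1 and the enzymes that oppose them. EZH2 itself was at 2.94 in vehicle, 2.32 in CDK2i and 3.83 in EZH2i. In CDK2i 18 genes of the list could pass and 2 were lower, CBX2 by a difference of −1.36 and CBX8 by −1.44, both PRC1 subunits that bind the methylated histone. None was higher. Over all genes that could pass, 8.07% were lower and 3.27% higher in CDK2i. In EZH2i 26 could pass, BMI1, a core PRC1 subunit, was higher by a log2 difference of 1.04, and none was lower. The share over all genes there was 8.93% higher and 4.42% lower. CBX2 and CBX8 exceeded log2 FPKM 3 in vehicle and not in CDK2i, which favours calls as lower. BMI1 exceeded it in EZH2i and not in vehicle, which favours calls as higher. The median difference of the list was −0.20 in CDK2i and 0.47 in EZH2i, beside −0.18 and 0.16 over all genes expressed in vehicle. Of the 13 PRC2 genes 6 could pass in CDK2i and 11 in EZH2i, and 0 passed. EZH2 itself was too weak to be called in CDK2i. Between the treated tumors, 9 of 23 genes of the list passed as higher in EZH2i, beside 17.5% of all genes, and 0 as lower. They included 5 of 10 PRC2 genes, EZH2 (1.51), EED, JARID2, AEBP2 and MTF2. Of these, all but AEBP2 exceeded log2 FPKM 3 in EZH2i and not in CDK2i, an entry that favours calls as higher.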

How the data were processed

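Total RNA of 3 xenograft tumors was sequenced by the authors as Illumina libraries, 1 each for vehicle, CDK2i and EZH2i. The submitters' processing notes name CASAVA, STAR and hg19; the counting tool and the gene lengths are not given in the sources used here. The authors deposited log2 FPKM per gene symbol in 1 table for all libraries, with −9 in place of a log of 0. Reads of mouse cells that map to the human genome would stay in these values. The 52 members, the Polycomb, marker and family lists and the comparisons were chosen with earlier results of these data known.

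Differences of log2 FPKM were taken between libraries with no further scaling. The p cutoff that the study set in limma could not be used with a single library per condition. Values in all libraries were printed for each member that was called in any pair, passed log2 FPKM 3 or was silent and reached 0, and the rest were summarised. PAX7, SOX2, SOX7, SOX8, SOX11, TBX2, TBX15, ISL1 and further weak members named beside them were chosen after their values were seen. Depth was derived from the FPKM steps of weak genes, with whole fragments accepted within 0.2% up to 100 fragments and a gene length of 0.5 to 1.3 times the canonical transcript. A whole solution was found for 21 members, and the other members used the canonical length of GENCODE 44 on GRCh37. The 95% intervals cover counting error only. The GC and length trend was a polynomial of degree 3 over all genes. Alternatives covered the fold, the expression minimum, a pseudocount of 1 or 0.1, centring and equal sums. Strand use in the counting is not stated, and 16 members overlap an antisense exon and 3 (FOXD1, SOX7 and SOX11) a same-strand one. Scripts were tested on simulated data and used Python 3.11.15, numpy 2.4.6, pandas 2.3.3, scipy 1.17.1 and matplotlib 3.10.9.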

Additional observations from a re-analysis of the deposited data

How the results depend on the processing

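Of 51 values recomputed under alternatives, 33 stayed within 1.5 times the reported count or median, and 18 moved further. Calls were compared as totals of higher and lower, so a turn in their direction does not show in these numbers. No median changed sign. After centring, the calls between the treated tumors went from 2 higher and 1 lower in EZH2i to 1 higher and 3 lower. Those in CDK2i against vehicle went from 6 lower to 5 lower and 1 higher. Without the expression minimum 30 members passed in CDK2i, 19 in EZH2i and 29 between the treated tumors, most of them on few fragments. These counts include members listed at 0 in either library, whose −9 was here used as a value. With a minimum of log2 FPKM 1 the count between the treated tumors was 10. In EZH2i 9 members passed at a fold of 1.5 and 1 at a fold of 3, and between the treated tumors 6 and 1. Centring on the median gene, which shifted all CDK2i differences by 0.17 and all EZH2i differences by −0.22, gave 8 calls in EZH2i, and equal summed FPKM gave 3 (DLX5, FOXI1 and FOXQ1). Counting only genes listed at 0 as silent left 6 silent members. With the split in vehicle kept at log2 FPKM 0 and the cut in the treated tumors raised to 1, the silent members that reached it were 0 in CDK2i and 0 in EZH2i. The median of the expressed members was −0.68 in CDK2i with a pseudocount of 1. In EZH2i it was −0.38 with that pseudocount, −0.41 with equal sums and −0.41 with the GC and length trend removed. Between the treated tumors it was 0.34 after centring. The causes of these shifts were not tested. No paired analysis was possible because the labels give 1 library per group and no replicate numbers, and no replicate could be left out. Depth limits the silent members most, since many rest on fewer than 10 fragments.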

Other observations

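The other genes of the same families, 83 in the table and 39 of them expressed in vehicle, were measured beside the members. Of 10 above the expression minimum in the CDK2i comparison, GATA3, a luminal factor, was lower, at log2 FPKM 4.04 in vehicle and 1.91 in CDK2i, and IRX4, an Iroquois gene of the heart ventricle, was higher at 3.33 and 4.66. Of 15 above it in the EZH2i comparison, GATA3 was again lower, at 2.73, and FOXJ3, FOXM1 and FOXP1 were higher. Over all genes that could pass, 8.07% were lower and 3.27% higher in CDK2i, and 4.42% and 8.93% in EZH2i. FOXJ3 and FOXP1 exceeded log2 FPKM 3 in EZH2i and not in vehicle, which favours calls as higher. GATA3 exceeded it in vehicle alone, which favours calls as lower. FOXM1, which drives mitotic genes, was at 4.12 in vehicle and 5.14 in EZH2i, and FOXP1 at 2.02 and 3.45. The median difference over the 39 expressed relatives was −0.32 in CDK2i and 0.25 in EZH2i, beside −0.18 and 0.16 over all genes and −1.09 and −0.65 over the members. Between EZH2i and CDK2i it was 0.83, above the 0.73 of the members and the 0.40 of all genes. At any size 30 of the 39 relatives (76.9%) were lower in CDK2i than in vehicle, close to the members' 80.0% and above the 61.8% of all genes.

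DLX6, which lies next to DLX5 and was looked at after the DLX5 values were seen, had log2 FPKM of 2.32 (vehicle), 0.60 (CDK2i) and 1.82 (EZH2i). Its differences from vehicle were −1.72 and −0.49. The fatty acid carrier FABP4, an adipocyte marker, was at 5.03, 4.22 and 1.60, while the other adipocyte markers in the table stayed below log2 FPKM 0.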
